A study of Mus musculus with 6 samples.

Results

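The major urinary protein genes of the mouse were followed in liver RNA from 6 libraries, 3 from controls and 3 with knockdown of Atoh8. The members were Mup3, Mup7, Mup10, Mup11, Mup12, Mup14, Mup20 and Mup21, 8 of the 48 genes and pseudogenes with a Mup symbol among 47729 genes in the count files. They were found by symbol in the deposited FPKM table and linked by gene identifier to the counts. The 8 were selected on measured values of these same libraries, so their group differences are given as a description, with no p-value, and support nothing beyond themselves. Among the Mup genes left outside, Mup13 and Mup17 had more reads than the member Mup12, so no single read threshold separates the members from the rest.

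All 6 livers came from C57BL/6 mice fed a diet with 0.1% DDC for 17 days. DDC is a porphyrin-inducing compound that injures bile ducts and hepatocytes. Control libraries are labelled WT by genotype and shNC in the study design, and the knockdown libraries are labelled ATOH8 knockdown and shAtoh8. The Atoh8 protein is a transcription factor of the basic helix-loop-helix class. All groups share the strain, the diet and the time, and the labels give neither sex nor age nor a group without the diet. The labels name hepatocytes as the cell type, while the protocol describes total RNA from removed livers. Nothing in them says that the replicates were separate animals, so every p-value below reflects no more than the spread among these libraries, part or all of which may be technical. In whole-liver RNA, fewer cells of a type and less RNA per cell cannot be told apart.

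Major urinary proteins are small secreted lipocalins, barrel-shaped proteins with a pocket that holds volatile pheromones. Hepatocytes make them in large amounts, the kidney passes them into the urine, and the scent marks carry information on individual, sex and status. Their genes lie in 1 cluster, with a centre of near-identical copies and more divergent genes towards the ends. In mouse liver their transcription is known to depend on pulses of growth hormone acting through STAT5, which makes many of them more abundant in males, and on thyroid hormone, glucocorticoid and the transcription factor Zhx2.

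On GRCm38, 47 of the 48 Mup genes and pseudogenes of the files lie on chromosome 4, between 59956804 and 62150863. All 8 members are protein-coding genes on the minus strand there, and none overlaps another annotated gene in GENCODE M21. Mup7 (ENSMUSG00000073842, 60066469 to 60070475), Mup10 (ENSMUSG00000078680, 60578260 to 60582199), Mup11 (ENSMUSG00000073834, 60658466 to 60662411), Mup12 (ENSMUSG00000094793, 60737383 to 60741326) and Mup14 (ENSMUSG00000073830, 61300023 to 61304000) make up the group called central here. The name refers to their near-identical sequence, since by position Mup7 lies close to the first Mup gene. Mup20 (ENSMUSG00000078672, 62050234 to 62054158), Mup3 (ENSMUSG00000066154, 62083476 to 62087342) and Mup21 (ENSMUSG00000066153, 62147932 to 62150863) sit side by side at 1 end, within 100630 bases.

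The coding sequences show which members a short read can tell apart. The lines below hold the 60 coding bases, positions 244 to 303 of the Mup10 coding sequence counted from its start codon, at which the 8 members differ most. Capitals mark bases that differ from Mup10.
Mup7: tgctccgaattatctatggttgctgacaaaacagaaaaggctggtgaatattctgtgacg
Mup10: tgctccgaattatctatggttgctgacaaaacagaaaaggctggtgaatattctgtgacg
Mup11: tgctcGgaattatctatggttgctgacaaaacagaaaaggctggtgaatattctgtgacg
Mup12: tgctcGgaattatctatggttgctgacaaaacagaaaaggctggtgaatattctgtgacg
Mup14: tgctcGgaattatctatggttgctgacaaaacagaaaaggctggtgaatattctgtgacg
Mup20: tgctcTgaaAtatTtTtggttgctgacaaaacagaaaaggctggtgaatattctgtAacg
Mup3: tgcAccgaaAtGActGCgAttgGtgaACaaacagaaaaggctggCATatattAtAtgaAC
Mup21: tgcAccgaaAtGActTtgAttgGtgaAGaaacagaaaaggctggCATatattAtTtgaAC
Mup7 and Mup10 are identical over this stretch, and Mup11, Mup12 and Mup14 each differ from Mup10 at 1 position. Mup20 differs at 5, Mup21 at 16 and Mup3 at 17 positions. Over the whole coding sequence the 5 central members were 98.34% to 99.44% identical to each other, which leaves 3 to 9 different positions in each of 10 pairs. Mup20 was 90.06% to 91.34% identical to those 5 genes. Mup3 and Mup21 were 94.75% identical to each other and at most 84.71% identical to any central member.

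The same split appears in the share of each transcript that occurs in no other gene. Of all 50-base windows, 84.4% in Mup3, 80.7% in Mup21 and 49.5% in Mup20 were found in that gene alone. For the 5 central members the share was 2.4% to 14.6%, and with 100-base windows it reached at most 22.5%. Counts for Mup7, Mup10, Mup11, Mup12 and Mup14 are therefore uncertain between these genes and their copies, since the count files mark no multiply aligned reads and how such reads were placed is not given. Mup20 shares most with the pseudogene Mup-ps19 (61957149 to 61959911), which holds 48.0% of the Mup20 windows. The plot of coding identity shows the 5-gene block and the 3 genes outside it.

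**Figure D1:**
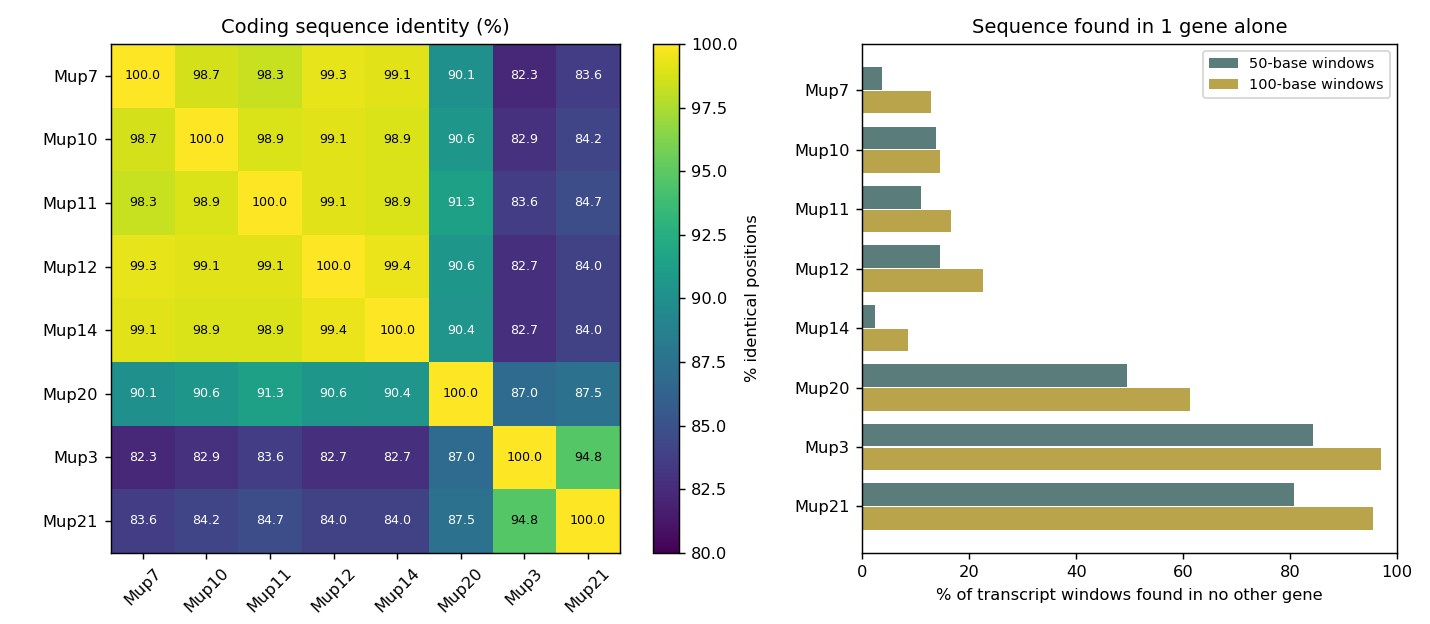
Left, percentage of identical coding positions for each pair of members, by colour and printed value. Right, percentage of 50-base and 100-base transcript windows found in 1 gene alone; Mup3 and Mup21 stand above 80% and the 5 central members at or below 22.5%.

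Before any group difference, 1 library needs mention. Control replicate 1 stood apart from the other controls across the transcriptome. The chi-square per gene over counting noise was 415 and 432 against control replicates 2 and 3, 55.7 between those 2, and 50.2 to 85.5 among the knockdown libraries. Reads in genes ranged from 31912058 to 37969644, and mitochondrial transcripts took 2.44% of them in control replicate 1 against 3.48% to 6.94% elsewhere. Atoh8 itself stood at 63.8, 16.8 and 16.4 CPM in the controls and at 10.2, 9.83 and 5.64 CPM in the knockdown libraries, with no overlap. Its log2 fold change of -1.92 (SE 0.58) did not pass the edgeR quasi-likelihood test after Benjamini-Hochberg adjustment (adjusted p = 0.197), and without control replicate 1 it was -0.95 (SE 0.23) and passed. Fold changes of the 8 members are given with and without that library, and the values of each library are shown for the genes named.

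Mup20, also called darcin, is the urinary protein by which male scent attracts females, and it was the most abundant member in every library. In CPM, that is read counts relative to the TMM-scaled library size, it stood at 228, 2242 and 2747 in control replicates 1 to 3 and at 3824, 2779 and 3538 in knockdown replicates 1 to 3. The lowest knockdown library exceeded the highest control by a ratio of only 1.01, while control replicate 1 lay 10.96-fold below the mean of the other 2 controls. Group means were 1739 ± 1333 CPM in controls and 3380 ± 540.3 CPM in knockdown libraries (SD, n = 3 each). The log2 fold change was 0.96 (SE 0.74) with all libraries and 0.45 (SE 0.20) without control replicate 1, and it passed the test in neither fit. The range among the 3 controls of Mup20 was wider than the difference between the group means.

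Mup21, the outermost member on this side of the cluster, followed Mup20 across libraries at a far lower level. It stood at 0.464, 6.85 and 10.04 CPM in controls and at 12.02, 12.65 and 12.5 CPM in knockdown libraries. The knockdown values lay close together and above every control, and control replicate 1 was again far below its group, 18.2-fold under the mean of the other 2. The log2 fold change was 1.10 (SE 0.82), not called, and 0.57 (SE 0.19), called higher, without control replicate 1. Across the 6 libraries Mup20 and Mup21 had a Pearson correlation of 0.993 in log2 CPM, the highest for either gene among the members. The libraries share depth and group, so this is only a description.

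Mup3 lies between these genes and did not follow them. It stood at 11.1, 32.8 and 38.9 CPM in controls and at 211, 241 and 219 CPM in knockdown libraries. Even the lowest knockdown library was 5.44-fold above the highest control. Its group means were 27.6 ± 14.6 and 223.5 ± 15.4 CPM (SD, n = 3 each), a ratio of 8.10 that came to 6.24 without control replicate 1. The log2 fold change was 3.02 (SE 0.45), or 2.66 (SE 0.16) without that library. Mup3 and Mup21 are neighbours in sequence as well as in place, and the log2 fold change of Mup3 lay below those of the central members Mup10, Mup11, Mup12 and Mup14 and above those of Mup7, Mup20 and Mup21.

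Mup10 belongs to the near-identical centre of the cluster. It was at 1.29, 1.63 and 2.89 CPM in controls, from 39, 57 and 89 reads, and at 30.7, 28.3 and 36.2 CPM in knockdown libraries, from 1267, 1083 and 1554 reads. The groups were far apart, with the lowest knockdown library 9.79-fold above the highest control. The log2 fold change was 4.03 (SE 0.35), and 3.84 (SE 0.25) without control replicate 1. In Mup10 control replicate 1 was no outlying value, being 1.75-fold below the mean of the other 2 controls.

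Mup11 showed the largest ratio of group means among the 8. It stood at 0.497, 0.745 and 1.14 CPM in controls, from 15, 26 and 35 reads, and at 15.2, 14.7 and 16.5 CPM in knockdown libraries, from 626, 561 and 708 reads. All knockdown libraries were at least 12.9-fold above the highest control, and the ratio of group means was 19.5. Its log2 fold change was 4.28 (SE 0.35), or 4.06 (SE 0.24) without control replicate 1.

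Mup14 stood at 0.795, 2.52 and 2.96 CPM in controls and at 22.0, 21.2 and 24.1 CPM in knockdown libraries. Its groups did not overlap either, and control replicate 1 was the lowest, 3.45-fold below the mean of the other 2 controls. For Mup14 the log2 fold change was 3.42 (SE 0.46), or 3.05 (SE 0.18) without that library.

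Mup12 and Mup7 were the central members with the lowest CPM in knockdown libraries. In controls Mup7 had the highest mean of the central members (2.505 CPM) and Mup12 the lowest. Mup12 had 5, 2 and 7 reads in controls and 53, 53 and 50 in knockdown libraries, which is 0.166, 0.0573 and 0.227 CPM against 1.28, 1.39 and 1.17 CPM. A floor of 3 reads corresponds to 0.0699 to 0.0994 CPM, so control replicate 2 lay below it and the size of the Mup12 difference rests on few control reads. Its log2 fold change was 3.08 (SE 0.54), not called, and 3.19 (SE 0.61), called higher, without control replicate 1.

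Mup7 was the only member whose groups overlapped. It had 38, 63 and 137 reads in controls and 213, 363 and 152 in knockdown libraries, or 1.26, 1.81 and 4.45 CPM against 5.16, 9.49 and 3.54 CPM. Control replicate 3 was above knockdown replicate 3. Its log2 fold change was 1.27 (SE 0.56), and 0.97 (SE 0.45) without control replicate 1, and it passed in neither fit. Only 3.64% of the 50-base windows of Mup7 are its own, and Mup15 shares 70.8% of them.

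**Figure D2:**
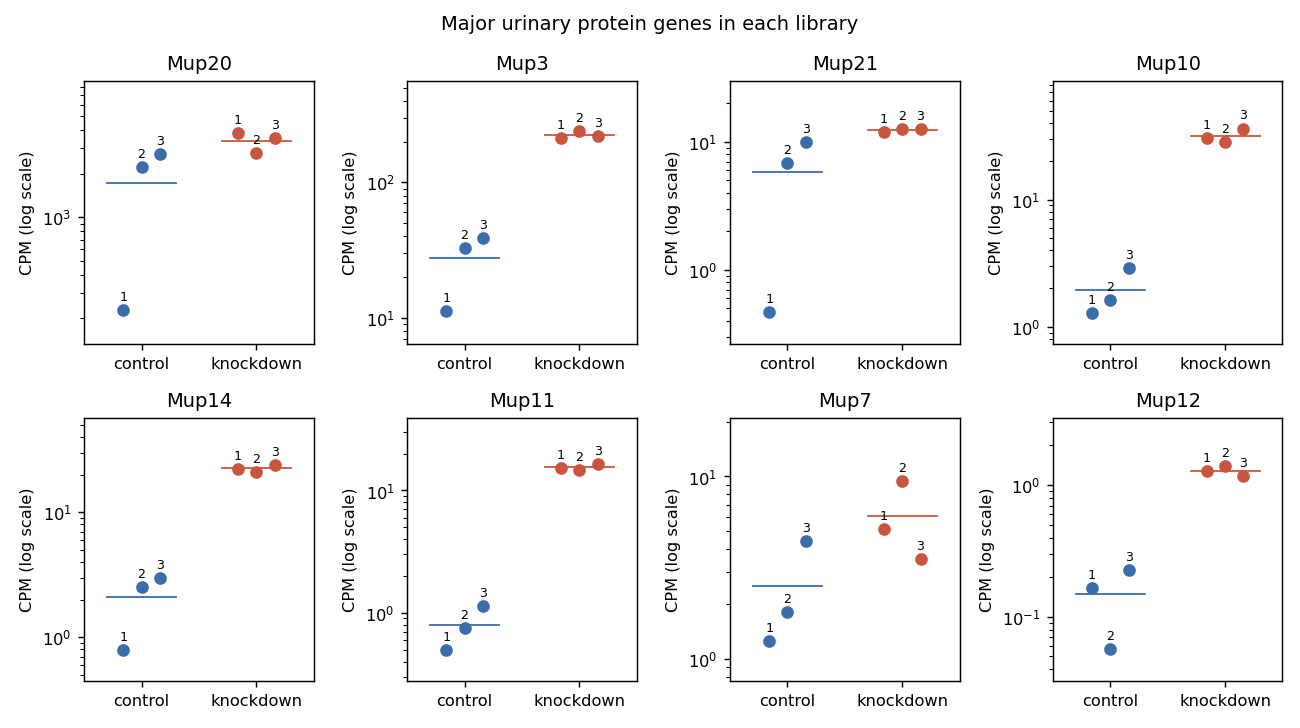
CPM on a log axis for each member in each library, with replicate numbers and a bar at the group mean (3 libraries per group). Mup3, Mup10, Mup11, Mup12 and Mup14 separate widely, Mup20 and Mup21 narrowly and with control replicate 1 far below the rest, and only Mup7 overlaps.

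All 8 members passed the filter on low counts, Mup12 only through its knockdown reads. With all libraries, 4 of 8 were called higher (Mup3, Mup10, Mup11 and Mup14) and 0 lower, beside 0.741% of 13767 tested genes called higher and 0.123% called lower. For 7 of 8 every knockdown library lay above every control, beside 13.0% of all tested genes. Without control replicate 1, 6 of 8 were called higher, with Mup12 and Mup21 added, beside 16.5% of 14222 tested genes called higher and 16.1% called lower. These counts carry no weight as evidence, because the members were chosen with this contrast in view. The median log2 fold change was 3.05 over the members and -0.05 over all tested genes, and without control replicate 1 it was 2.85 and 0.01. All 4 calls were lost when control replicate 2 or any 1 knockdown library was left out, and those of Mup3 and Mup14 also without control replicate 3, while the fold changes of these 4 genes kept their direction and lay between 2.66 and 4.62 over every library left out in turn.

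**Figure D3:**
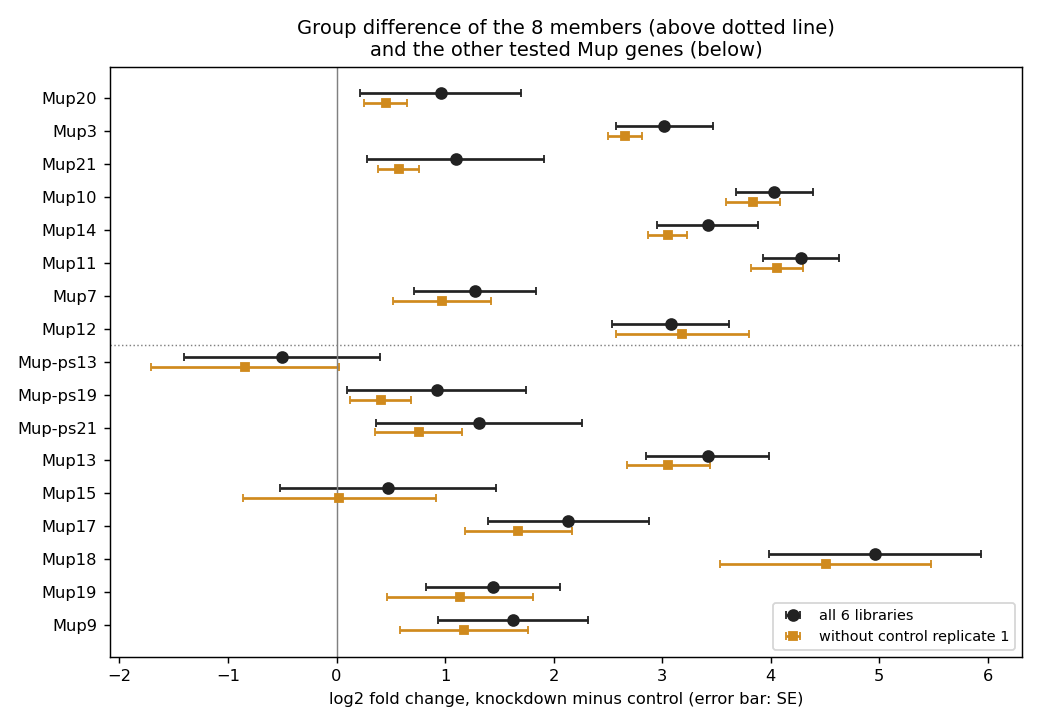
Log2 fold change, knockdown minus control, with its SE for the 8 members and, below the dotted line, 9 other Mup genes, with all 6 libraries (circles) and without control replicate 1 (squares). Mup3, Mup10, Mup11, Mup12 and Mup14 lie near or above 3, Mup20, Mup21 and Mup7 near 1, and Mup-ps13 alone below 0.

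Because reads of the central copies cannot be placed with certainty, the family was also summed. The 8 members together came to 243.1, 2288 and 2808 CPM in controls and 4122, 3107 and 3851 CPM in knockdown libraries. The knockdown sums all exceeded the control sums, by little for control replicate 3 and by much for control replicate 1. As a share of reads in genes the sum took 0.0207%, 0.216% and 0.271% in controls and 0.453%, 0.322% and 0.435% in knockdown libraries. The exact binomial 95% interval of the lowest share was 0.0202% to 0.0212%, so counting error is small beside the spread between libraries, and such intervals cover counting error only. The sum had a log2 fold change of 1.05 (SE 0.73), and the ratio of group means was 2.08, or 1.45 without control replicate 1.

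The family sum is in the main a measure of Mup20. Mup20 took 93.58% to 97.97% of family reads in controls and 89.43% to 92.78% in knockdown libraries. The 7 other members together stood at 15.6, 46.4 and 60.6 CPM in controls and at 298, 328 and 313 CPM in knockdown libraries. Their ratio of group means was 7.66, and 5.85 without control replicate 1, so this smaller sum was far apart between the groups with or without that library. The 5 central members alone summed to 4.01, 6.77 and 11.7 CPM in controls and to 74.3, 75.0 and 81.5 CPM in knockdown libraries. This sum does not settle the placing of shared reads, since each of the 5 shares most of its windows with Mup genes outside the 8, such as Mup10 with Mup22 (85.9% of 50-base windows).

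Per transcript length, on the deposited FPKM scale, the order of the members by group mean differed between the groups. In knockdown libraries Mup20 led with 5661 ± 951 FPKM, followed by Mup3 with 343 ± 33.8, Mup10 with 65.1 ± 5.23, Mup14 with 58.2 ± 2.12, Mup11 with 45.5 ± 1.91, Mup21 with 41.0 ± 2.23, Mup7 with 11.5 ± 3.56 and Mup12 with 3.80 ± 0.449 FPKM (mean ± SD, n = 3). Among these neighbours only Mup10 and Mup14 overlapped. In controls Mup20 stood at 2951 ± 2238, Mup3 at 43.4 ± 22.4, Mup21 at 13.4 ± 10.4, Mup14 at 5.52 ± 2.60, Mup7 at 4.27 ± 2.99, Mup10 at 3.95 ± 1.46, Mup11 at 2.38 ± 0.914 and Mup12 at 0.351 ± 0.185 FPKM. There Mup20 stood clear of Mup3 and Mup11 of Mup12, and every pair of neighbours between Mup3 and Mup11 overlapped. By group mean Mup21 was thus the third member in controls and the sixth in knockdown libraries. In control replicate 1 alone it stood at 1.73 FPKM, below Mup10 (2.66), Mup14 (2.53) and Mup7 (1.98). Its rank there was the same as in the knockdown libraries. The order of the control means was the same without control replicate 1, where Mup3 and Mup21, Mup21 and Mup14, and Mup10 and Mup11 no longer overlapped.

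Relating each member to Mup20 inside its own library removes library size. Per 1000 Mup20 reads, Mup3 had 48.9, 14.6 and 14.1 reads in controls and 55.2, 86.6 and 61.8 in knockdown libraries. On this scale control replicate 1 lay near the knockdown libraries and away from its own group. The denominator was low there, with Mup20 at 228 CPM against 2242 and 2747 CPM in the other controls. In CPM, Mup3 was lowest of all libraries in control replicate 1 (11.1 CPM), so its closeness to the knockdown libraries is one of ratio only. Mup10 had 5.68, 0.729 and 1.05 reads against 8.03, 10.2 and 10.2, with the same position of control replicate 1. Mup11 had 2.18, 0.333 and 0.414 against 3.97, 5.28 and 4.66 reads, and Mup14 had 3.49, 1.13 and 1.08 against 5.76, 7.62 and 6.81. All 4 genes were lower relative to Mup20 in every control than in any knockdown library. Mup21 kept a narrow ratio to Mup20 with overlapping groups, at 2.04, 3.06 and 3.65 against 3.14, 4.55 and 3.54 reads. Mup7, with 5.53, 0.806 and 1.62 against 1.35, 3.41 and 1.00, and Mup12, with 0.728, 0.0256 and 0.0828 against 0.336, 0.498 and 0.329, had their highest ratio in control replicate 1.

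**Figure D4:**
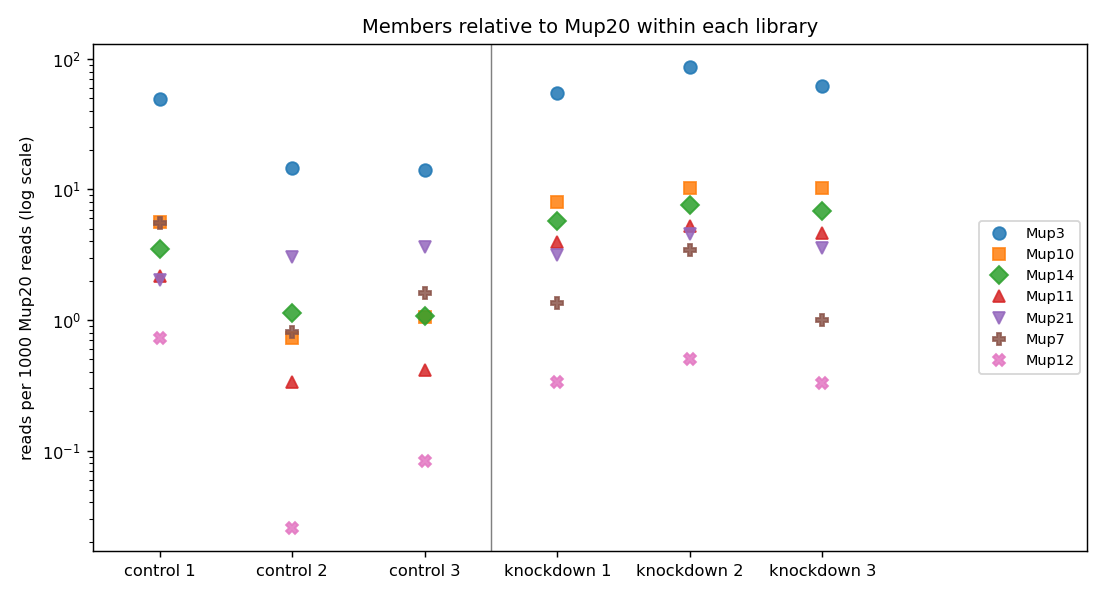
Reads of each other member per 1000 Mup20 reads, on a log axis, in each library. Mup3, Mup10, Mup11 and Mup14 are lowest in control replicates 2 and 3, intermediate in control replicate 1 and highest in the knockdown libraries, while Mup21 stays between 2.04 and 4.55.

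Correlations across the 6 libraries are given as a description without a test. Mup3, Mup10, Mup11, Mup12 and Mup14 correlated with each other at 0.895 to 0.999 in log2 CPM, with 0.998 for Mup3 and Mup14 and 0.999 for Mup10 and Mup11. These 5 correlated with Mup20 and Mup21 at 0.496 to 0.817, with Mup3 and Mup14 at the upper end (0.788 to 0.817). Mup7 correlated with all other members at 0.716 to 0.827 and so stood with neither set. Mup10, Mup11, Mup12 and Mup14 share most of their sequence, and how far shared reads enter their correlations was not tested. Mup3 is at most 83.6% identical to them in coding positions.

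The other Mup genes were 13 protein-coding genes and 27 pseudogenes. Reads were found for 26 of these 40 genes, and 9 passed the filter. Of the 9, 8 had a positive log2 fold change and 0 were called with all libraries by the edgeR quasi-likelihood test. Some of them, such as Mup18 and Mup19, passed the filter only through their knockdown reads. Their positive sign was thus largely set by the filter, and the count of signs is only a description. At an unadjusted p under 0.05 there were 4, beside 2002 of all 13767 tested genes. DESeq2 called 2, beside 590 higher and 221 lower of 15837 genes. Mup13 came closest, with 7, 15 and 38 reads in controls and 280, 250 and 301 in knockdown libraries (log2 fold change 3.42, SE 0.57, Benjamini-Hochberg adjusted p = 0.0502). Mup18 had 0, 0 and 2 reads against 23, 21 and 50 (adjusted p = 0.0744 by the same edgeR test). Mup17 had 3, 11 and 36 reads against 112, 80 and 93, a log2 fold change of 2.13 (SE 0.74, adjusted p = 0.250 by the same edgeR test). In all 3 genes, singled out after their values were seen, every knockdown library lay above every control. This held for 6 of the 9, beside 13.0% of all tested genes. None of the 6 would have passed the filter without its knockdown reads. Their count and their p-values with all libraries are therefore only a description. Without control replicate 1 these 3 alone were called higher among 10 tested, beside 16.5% of all tested genes. Summed, the 13 protein-coding genes outside the 8 had 21, 49 and 121 reads in controls and 485, 442 and 561 in knockdown libraries. Mup-ps19, at 622, 7454 and 11415 reads in controls and 16967, 9926 and 20431 in knockdown libraries, kept to 90.5 to 135 reads per 1000 Mup20 reads in all 6 libraries. Since 89.8% of its 50-base windows also occur in Mup20, these reads may belong to either gene.

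Upstream sequences were read for the members in the RefSeq promoter table (GRCm38.p6), which held 6 of the 8. The windows of Mup3 and Mup21 are shown because the 2 genes differ in their group pattern, and those of Mup10 and Mup14 because they correlated with Mup3 across libraries. Each has 300 bases, from upstream of the annotated start into the first transcribed bases, and capitals mark matches to TATATAA on either strand, letters chosen after the sequences were seen.
Mup3 (chr4:62087268-62087567, minus strand): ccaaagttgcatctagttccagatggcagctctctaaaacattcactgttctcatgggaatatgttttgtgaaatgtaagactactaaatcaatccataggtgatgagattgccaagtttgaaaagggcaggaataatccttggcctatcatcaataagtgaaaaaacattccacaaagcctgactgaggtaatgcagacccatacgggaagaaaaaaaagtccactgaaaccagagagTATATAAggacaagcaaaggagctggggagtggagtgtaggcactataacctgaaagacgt
Mup21 (chr4:62150792-62151091, minus strand): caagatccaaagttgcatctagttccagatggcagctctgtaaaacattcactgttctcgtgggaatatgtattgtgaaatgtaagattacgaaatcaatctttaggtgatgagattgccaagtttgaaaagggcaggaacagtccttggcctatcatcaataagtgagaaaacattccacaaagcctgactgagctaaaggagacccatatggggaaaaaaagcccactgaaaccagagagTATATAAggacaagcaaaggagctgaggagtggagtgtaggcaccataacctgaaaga
Mup10 (chr4:60582106-60582405, minus strand): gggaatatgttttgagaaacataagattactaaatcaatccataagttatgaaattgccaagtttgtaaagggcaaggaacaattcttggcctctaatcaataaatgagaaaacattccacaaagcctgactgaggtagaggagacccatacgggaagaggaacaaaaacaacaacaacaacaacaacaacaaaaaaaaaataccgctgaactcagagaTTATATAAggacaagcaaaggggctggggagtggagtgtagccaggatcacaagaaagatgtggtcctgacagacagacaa
Mup14 (chr4:61303949-61304248, minus strand): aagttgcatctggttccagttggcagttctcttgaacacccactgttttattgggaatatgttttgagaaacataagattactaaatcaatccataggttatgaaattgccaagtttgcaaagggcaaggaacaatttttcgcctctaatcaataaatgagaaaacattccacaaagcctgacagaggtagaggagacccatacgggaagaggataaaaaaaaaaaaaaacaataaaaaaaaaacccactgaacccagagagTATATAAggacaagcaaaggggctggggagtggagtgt
TATATAA occurred in 5 of 6 windows, all but that of Mup7, and in 3.24% of 32851 promoter windows of the same length. The annotated starts lie at different distances from these letters, so the windows are not aligned to 1 point. The STAT5 motif TTCNNNGAA occurred in 0 of 6 windows and in 8.30% of all, the FOXA motif TGTTTNC in 5 of 6 (all but Mup3) and in 20.5% of all, and the E-box CANNTG, bound by basic helix-loop-helix factors, in 4 of 6 (Mup3, Mup7, Mup14 and Mup21) and in 72.3% of all, both strands counted. Counted over all aligned columns, gaps included, the windows of Mup3 and Mup21 were 90.2% identical (276 of 306 columns). Those of Mup10 and Mup14 were 65.9% identical (232 of 352 columns). Windows offset from each other gain gap columns, so these percentages do not rank the pairs by sequence divergence. Window placing also bears on missing matches. The windows of Mup10 and Mup11 begin downstream of the stretch that holds the E-box letters in Mup14. That of Mup7 ends before the stretch that holds TATATAA in the others. The lack of a match there says nothing on the sequence outside the window. Matches are a description of letters in these windows and not of binding.

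Growth hormone signalling and the other known regulators of Mup transcription were read from a list with 25 genes in the count files, all of them tested. By the edgeR quasi-likelihood test 0 were called with all libraries, where 6 log2 fold changes were positive and 19 negative, with a median of -0.47. At an unadjusted p under 0.05 there were 9, beside 2002 of all 13767 tested genes. DESeq2 called 4, beside 590 higher and 221 lower of 15837 genes. Cish, a feedback inhibitor that STAT5 induces, had the smallest p-value. It stood at 18.2, 25.2 and 26.6 CPM in controls and at 4.32, 8.94 and 8.09 CPM in knockdown libraries, below every control (log2 fold change -1.71, SE 0.33, edgeR adjusted p = 0.0685). Its log2 fold change was -1.85 (SE 0.26) without control replicate 1. Igfals, the acid-labile subunit that carries IGF1 in blood, stood at 121, 78.7 and 85.7 against 46.0, 48.6 and 33.7 CPM (-1.15, SE 0.25, edgeR adjusted p = 0.0887), or -0.93 (SE 0.16) without that control. Without control replicate 1, 13 of the 25 were called lower and 2 higher, beside 16.1% and 16.5% of all tested genes.

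Other genes of this list, named after their values were seen, describe the pathway further. Igf1, the growth factor that growth hormone induces in liver, stood at 243, 494 and 542 CPM in controls and 160, 214 and 206 CPM in knockdown libraries. Its knockdown values were all below the controls, with a log2 fold change of -1.14 (SE 0.32). Ghr, the growth hormone receptor, stood at 94.9, 259 and 291 against 99.9, 134 and 123 CPM, so that control replicate 1 fell below the knockdown libraries. Stat5b, the main STAT5 of hepatocytes, stood at 80.2, 48.9 and 50.3 against 57.6, 55.8 and 52.8 CPM, with overlapping groups. Bcl6, a repressor that competes with STAT5 at many sites, stood at 4.47, 3.27 and 3.96 against 13.1, 7.24 and 8.79 CPM, above every control. Without control replicate 1, Igf1 and Ghr were called lower, Bcl6 was called higher and Stat5b was not called. Socs2, another STAT5-induced inhibitor, was not called with all libraries (-1.18, SE 0.38) and was called lower without control replicate 1.

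The regulators outside the growth hormone pathway, also named after their values were seen, gave a mixed picture. Zhx2 stood at 16.4, 13.6 and 13.7 CPM in controls and at 17.3, 16.7 and 16.04 CPM in knockdown libraries, with overlapping groups, and was not called in either fit. Nr3c1, the glucocorticoid receptor, stood at 19.4, 87.7 and 92.7 against 52.5, 46.7 and 54.8 CPM. Thrb, the main thyroid hormone receptor of liver, stood at 4.67, 36.6 and 31.9 against 25.0, 20.8 and 21.3 CPM. Both receptors were lowest in control replicate 1 and highest in the other controls, and both were called lower without that library and not called with it.

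Genes with sex-biased expression in liver did not share 1 direction. Of 17 tested genes of a male-biased list, 2 were called higher and 0 lower, with 11 positive and 6 negative log2 fold changes and a median of 0.15. Selenbp2, a selenium-binding protein gene, rose from 87.8, 69.1 and 71.7 CPM to 292, 293 and 205 CPM (log2 fold change 1.79, SE 0.22, edgeR adjusted p = 0.0280). Elovl3, a fatty acid elongase gene, rose from 0.464, 0.688 and 0.455 CPM to 2.18, 5.31 and 4.34 CPM (2.87, SE 0.44, edgeR adjusted p = 0.0402). Both calls were lost with the replicate number as a block, on both FPKM scales and with any 1 library other than control replicate 1 left out, and on the FPKM scale control replicate 1 (182) lay above knockdown replicate 3 (140) for Selenbp2. Without control replicate 1, 3 of 17 male-biased genes were called higher and 5 lower, beside 16.5% and 16.1% of all tested genes. Of 14 tested female-biased genes, 1 was called higher and 0 lower, with a median of -0.65, and without control replicate 1 there were 2 higher and 5 lower, beside the same shares of all genes. The call was Prom1, also a surface marker of progenitor and duct cells, at 2.62, 1.32 and 0.910 CPM against 14.2, 10.6 and 12.5 CPM (2.95, SE 0.41, edgeR adjusted p = 0.0344). This call too was lost with any 1 library other than control replicate 1 left out.

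Transcripts of the sex chromosomes were compared because of the male bias of the Mup genes. Xist, which marks an inactive X chromosome, had 2, 2 and 2 reads in controls and 4, 0 and 1 in knockdown libraries. The Y-linked genes had reads in all 6 libraries, with Ddx3y at 9.67, 92.6 and 110 CPM in controls and at 28.0, 34.9 and 38.4 CPM in knockdown libraries, and Eif2s3y at 10.6, 66.6 and 61.0 against 29.9, 35.6 and 39.1 CPM. Kdm5d stood at 5.70, 18.9 and 16.8 against 11.9, 10.8 and 13.7 CPM, and Uty at 2.48, 17.9 and 22.9 against 7.49, 8.57 and 12.2 CPM. By edgeR 0 of these 4 Y-linked genes were called with all libraries, and 0 had an unadjusted p under 0.05. Without control replicate 1, 4 were called lower, beside 16.1% of all tested genes. All 4 were lowest in control replicate 1, as Mup20 and Mup21 were, but unlike them were highest in control replicates 2 and 3. Whether these values bear on the Mup genes was not tested.

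**Figure D5:**
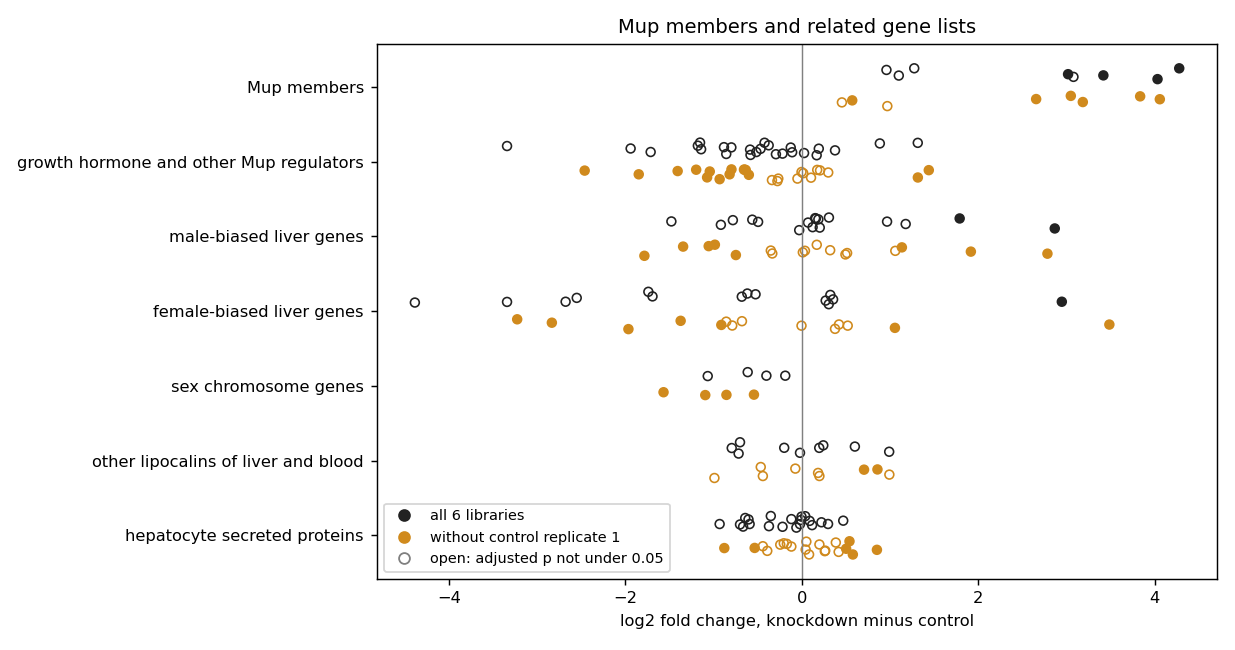
Log2 fold change, knockdown minus control, of each tested gene in 7 lists, with all 6 libraries (black) and without control replicate 1 (orange), filled where the adjusted p was under 0.05. The 8 Mup members lie to the right of 0, and the growth hormone and other Mup regulators lie mostly to the left.

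Other lipocalins and other secreted products of hepatocytes were read in the same way. Of 9 tested lipocalins outside the family 0 were called by edgeR, 3 at an unadjusted p under 0.05, and 0 by DESeq2, with a median log2 fold change of -0.02. Ptgds, a prostaglandin synthase, had the smallest p-value among them (0.99, SE 0.37, edgeR adjusted p = 0.283), followed by Orm3, an acute phase protein (-0.80, SE 0.33, edgeR adjusted p = 0.322). Of 20 secreted protein genes 0 were called by edgeR, 4 at an unadjusted p under 0.05, and 1 by DESeq2, with a median of -0.09. The smallest p-values were those of the apolipoprotein gene Apoa2 (-0.93, SE 0.22, edgeR adjusted p = 0.122) and of Ttr, the carrier of thyroid hormone and retinol-binding protein (-0.61, SE 0.22, edgeR adjusted p = 0.272). Without control replicate 1, 2 of 9 lipocalins were called higher, and 4 of 20 secreted protein genes were called higher and 2 lower, beside 16.5% and 16.1% of all tested genes. Over all genes with all libraries, 2002 of 13767 had an unadjusted p under 0.05 in edgeR. DESeq2 called 590 higher and 221 lower of 15837 genes.

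Markers of liver cell types were summed in each library beside these results. All 8 hepatocyte markers had reads in every library and summed to 111100 to 142400 CPM in controls and 101300 to 115900 CPM in knockdown libraries, so the labelled cell type was present at high level. Alb alone gave 77150 to 103000 CPM of it. All 8 hepatocyte markers had a negative log2 fold change (median -0.66) and 0 were called by edgeR. At an unadjusted p under 0.05 there were 2, beside 2002 of all 13767 tested genes. The median was -0.38 and 3 were called lower when control replicate 1 was left out, beside 16.1% of all tested genes. The 7 cholangiocyte markers summed to 40.1 to 53.2 CPM in controls and 332 to 554 CPM in knockdown libraries. Spp1 made up most of it in controls and nearly all in knockdown libraries, at 30.7, 37.8 and 40.8 against 539, 322 and 528 CPM. Sox9 stood at 7.35, 12.8 and 10.5 against 13.3, 8.94 and 9.84 CPM, and Krt19 was at most 0.166 CPM. The 8 stellate and fibroblast markers summed to 188 to 210.5 CPM against 301 to 416 CPM, and Acta2, the smooth muscle actin of activated stellate cells, rose from at most 0.0331 CPM to 0.941 to 1.26 CPM (edgeR adjusted p = 0.0282). Acta2 had 1, 1 and 0 reads in controls, below the floor of 3 reads, and 52, 36 and 47 in knockdown libraries. It passed the filter only through its knockdown reads, so its p-value is only a description. The 8 macrophage markers summed to 159 to 358 CPM against 272 to 308 CPM and the 7 endothelial markers to 146 to 168 CPM against 131 to 185.5 CPM. Lymphocyte markers stayed at or below 0.340 CPM and neutrophil markers at or below 0.630 CPM, with Ly6g at 0 in all. The part of these cell types in the Mup differences was not tested.

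Finally, the genes whose log2 CPM followed the family sum most closely over the 6 libraries were taken from 7689 genes outside the family with a mean of at least 10 CPM. They were Mdfic (Pearson r = 0.997), Pkd2 (0.997), Pdpk1 (0.996), Ccz1 (0.994), 1700066M21Rik (0.994) and Fam46a (0.994). All 6 had their lowest value in control replicate 1, as the family sum did. Mdfic stood at 8.21, 21.2 and 22.7 CPM in controls and at 26.8, 22.0 and 25.6 CPM in knockdown libraries, so control replicate 1 lies far from the other 5 libraries.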

How the data were processed

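RNA-seq data of 6 mouse liver libraries were used. The authors deposited raw read counts per gene for each library and 1 table of FPKM values (per transcript length and library size) for all of them. FastQC, Trim Galore, HISAT2 2.10, HTSeq, Cufflinks 2.2.1 and the build GRCm38 (mm10) are listed, with no role or order, per the submitters' processing notes. The strand setting of the counting was not given in the sources used here. The 5 closing lines of each count file name no gene and were left out. Reads outside genes made up 2.48% to 5.66% and ambiguous reads 4.69% to 6.87%, and the lines for multiply aligned reads were 0 throughout. The FPKM table held 47719 genes, and 47224 of the 47729 identifiers in the count files were found in GENCODE M21, which gave coordinates and transcripts.

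Low counts were removed by filterByExpr, libraries were scaled by TMM (factors 0.852 to 1.13), and counts were tested over all genes on group alone with edgeR 4.0.16 by its quasi-likelihood test (limma 3.58.1, R 4.3.3), after a check on simulated data. Calls were made at a Benjamini-Hochberg adjusted p under 0.05 over all genes. The SE is the absolute log2 fold change divided by the square root of the F statistic. Library sizes for CPM were TMM-scaled, with 2 prior reads on the log2 scale. The alternatives tried were size factors by median ratio, no filter, 1 CPM in 3 libraries, DESeq2 1.42.0, the replicate number as a block, library sizes without Mup and mitochondrial genes, limma on log2 FPKM with pseudocounts of 1 and 0.1 for genes of at least 0.5 FPKM in 3 libraries, and each library left out in turn. The members and all lists were chosen with earlier results of these data known. For that reason an exact permutation test planned for the family sum is not reported, and its smallest p with 3 against 3 would be 0.1. The rule for named genes took all members, the other Mup genes, Atoh8, the sex chromosome genes, from each list the genes called (at most 4) or else the 2 of smallest p, and the 6 genes most like the family sum. Genes named outside it are marked in the text as named after their values were seen. Coding sequences were those of the principal transcripts in GENCODE M21, aligned with Biopython 1.88 under Python 3.11.15. Replicate pairs all differed by more than counting noise.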

Additional observations from a re-analysis of the deposited data

How the results depend on the processing

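The log2 fold changes of all 8 members and of the family sum were positive under all 14 alternatives. For Mup20 they lay between 0.45 and 1.55 and for the family sum between 0.55 and 1.63. Of the 8 members, 4 were called with all libraries, 4 or 5 under the other settings (Mup12 was added by no filter, 1 CPM, DESeq2 and both FPKM scales) and 0 to 6 with a library left out. The share of Mup7 in the family sum, knockdown minus control, was -0.078 percentage points and ranged from -0.164 to 0.055 with a library left out, positive without control replicate 1. That of Mup12 was 0.009 and ranged from -0.003 to 0.03, negative without control replicate 2 and 0 without control replicate 3.

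Over all genes, 102 were called higher and 17 lower. No filter gave 213 and 34, DESeq2 590 and 221, and limma on log2(FPKM + 1) 27 lower. The replicate number did not pair the libraries (correlations of deviations 0.322, -0.133 and 0.383), and with the replicate block 33 were called higher and 2 lower, the same 4 members among them. Leaving out 1 library gave 0 to 2348 higher and 0 to 2284 lower. At an unadjusted p under 0.05 there were 1633 genes without control replicate 2, and 1130, 1706 and 1224 without knockdown replicates 1, 2 and 3, in edgeR. Of the lists, the male-biased genes had 2 calls, 4 with DESeq2, 0 with the replicate block, 0 on either FPKM scale and 0 to 8 with a library left out. The female-biased genes had 1 call, 2 with no filter, with the replicate block or with log2(FPKM + 1), 5 with DESeq2 and 0 to 7 with a library left out. The regulators had 0 calls, 1 with no filter, 4 with DESeq2 and 0 to 15 with a library left out. The secreted protein genes had 0, 1 with DESeq2 and 0 to 6, and the lipocalins 0 and 0 to 2, the upper values all without control replicate 1. The causes were not tested.

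Near-identical copies limit the values of single central members, and Mup12 rests on 2 to 7 reads in each control.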
